A study of Homo sapiens with 8 samples.

Results

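ETV1, ETV4, ETV5, ETS1, ETS2, EGR1, IER2, IER3, PHLDA1 and MYC are genes whose transcription is raised by signalling through the ERK kinases. They were followed in AsPC-1 and PANC-1, 2 established human lines of pancreatic cancer, treated with a MEK inhibitor, a riboflavin analogue, or both. The 10 genes were chosen by symbol from a table of 62649 genes, and each symbol matched a single row. Every library came from spheroids whose genotype is labelled WT, grown for 3 days in methylcellulose medium and then exposed for 24 h to its treatment. In each line 1 library was made after vehicle, 1 after 10 µM roseoflavin, 1 after 1 nM trametinib and 1 after both together. No group had a replicate. Each line is a single established line, so a difference between AsPC-1 and PANC-1 describes these 2 lines only.

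Trametinib blocks MEK, the kinase that activates ERK. Active ERK phosphorylates factors that sit with SRF at CArG boxes, DNA elements that switch on immediate early genes such as EGR1 within minutes. It also relieves repression by CIC, a protein that holds ETV1, ETV4 and ETV5 silent when the pathway is off. ETS1, ETS2 and MYC are themselves transcription factors that ERK signalling both induces and modifies, and IER3 and PHLDA1 are induced regulators of cell survival. Roseoflavin is a natural riboflavin analogue that can enter flavin cofactors.

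Levels are in TPM (transcript abundance corrected for gene length and scaled to a common total). Depth cannot be read from them, and the counting error of each value is therefore unknown. In such bulk samples fewer cells of a type and less RNA per cell cannot be told apart. All 10 genes passed the filter of at least 1 TPM in 2 libraries, as did 19122 genes in all. Differences were fitted over those genes with limma on log2(TPM + 1). Because no group had a replicate, the lines and the other compound stood in for replication in these fits. Transcripts of the mitochondrial genome made up between 41.2% and 44.1% of each AsPC-1 library and between 22.8% and 25.6% of each PANC-1 library. Epithelial markers (EPCAM, CDH1, KRT8, KRT18, KRT19, CEACAM6) summed to between 9167 and 10555 TPM in AsPC-1 and to between 2709 and 3029 TPM in PANC-1. Mesenchymal markers (VIM, ZEB1, CDH2, FN1, SPARC) summed to between 668 and 825 TPM in AsPC-1 and to between 3677 and 3924 TPM in PANC-1. In AsPC-1 VIM made up 660 to 816 TPM of these sums, and CDH2 was listed at 0. CEACAM6 was at or below 0.097 TPM in each PANC-1 library. Of the markers of other cell types, the leukocyte gene PTPRC, the endothelial gene PECAM1, the insulin gene INS and the acinar gene PRSS1 were at or below 0.158 TPM in each library, while COL1A1 was at 98.9 to 107 TPM in PANC-1.

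Stretches upstream of EGR1 and ETV1 are shown because they carry the elements through which ERK signalling is known to reach these genes. RefSeq promoter windows on GRCh38.p14 were searched for 5 of the 10 genes (ETV1, ETS2, EGR1, IER2 and PHLDA1), 11 windows in all. The search covered the 250 bases before each start on both strands. The EGR1 stretch is chr5:138465229-138465478 on the plus strand, with its CArG boxes in capitals.
EGR1: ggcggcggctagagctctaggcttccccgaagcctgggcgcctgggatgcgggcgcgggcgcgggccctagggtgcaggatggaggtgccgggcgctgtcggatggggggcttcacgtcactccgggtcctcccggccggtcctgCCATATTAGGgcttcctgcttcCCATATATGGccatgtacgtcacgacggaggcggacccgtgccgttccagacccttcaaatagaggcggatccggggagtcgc
The ETV1 stretch is chr7:13991426-13991675 on the minus strand, with a match to the octamer bound by CIC (TGAATGAA or TGAATGGA) in capitals.
ETV1: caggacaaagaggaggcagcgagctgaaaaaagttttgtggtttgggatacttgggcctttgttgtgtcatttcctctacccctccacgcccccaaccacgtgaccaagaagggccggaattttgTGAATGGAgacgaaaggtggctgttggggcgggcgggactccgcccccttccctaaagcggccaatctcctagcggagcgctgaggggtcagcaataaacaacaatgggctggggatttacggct
EGR1 had 2 CArG boxes, CCATATTAGG and CCATATATGG, beginning 105 and 83 bases before the start, and 1.16% of 35116 windows of that length held at least 1. The ETV1 octamer TGAATGGA began 125 bases before the start, and either form of the octamer occurred in 2.19% of windows. The same ETV1 stretch held the ETS core CCGGAA, present in 14.5% of windows, and the E-box CACGTG, present in 6.34%. IER2 and PHLDA1 each had 1 ETS core on the opposite strand, read as TTCCGG, 26 and 89 bases before the start. The short form TGACG of the cAMP response element was in 21.2% of windows. It occurred at 2 places upstream of EGR1, at 2 upstream of ETS2 and at 1 upstream of IER2. ETV1 had it in 3 windows, among them overlapping windows that share the same site and also share an ETS core. The full element TGACGTCA (1.65% of windows), the AP-1 site TGANTCA with C or G at N (4.2%) and the EGR sites GCGTGGGCG and GCGGGGGCG (5.37%) were not matched in the windows of these genes.

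The first comparison asked how the genes differ between the lines. ETV5, ETS1, ETS2 and PHLDA1 were higher in PANC-1, and ETV1, ETV4, EGR1, IER2, IER3 and MYC were higher in AsPC-1. All 10 passed an adjusted p of 0.05 in limma, 4 of them higher in PANC-1 and 6 lower. Of all genes tested 83.8% passed (62.3% higher in PANC-1, 21.5% lower), so the count of members is close to that background. Under quantile normalization 52.6% of the calls were higher in PANC-1, against 74.4% for the values as deposited, and the median of all genes moved by -0.51. With TPM rescaled without mitochondrially encoded genes these were 60.9% and -0.33. Each of the 10 genes kept its direction and its call under both scalings.

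The 3 close relatives ETV1, ETV4 and ETV5 form the PEA3 group of ETS factors, and they split between the lines. ETV4 averaged 43.7 TPM over the AsPC-1 libraries (SD 0.603, n = 4) and 15.4 TPM over the PANC-1 libraries (SD 0.601, n = 4), a log2 difference of -1.45 (SE 0.0404, limma adjusted p 1.54e-07). ETV1 averaged 10.6 TPM (SD 0.587) and 4.62 TPM (SD 0.310) in the same order. ETV5 went the other way, with 10.8 TPM (SD 0.712) in AsPC-1 and 48.4 TPM (SD 4.14) in PANC-1, a log2 difference of 2.065 (SE 0.0676, limma adjusted p 3.18e-07). ETV4 was thus the most abundant of the 3 in AsPC-1 and ETV5 in PANC-1. Libraries of the lines did not overlap for any of them. Each SD here and below is over the 4 treatments of a line, 1 library each, and is not a spread of replicates.

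ETS2, a founding member of the ETS family, had the largest gap of the 10, with 38.2 TPM (SD 1.97) in AsPC-1 and 190.1 TPM (SD 7.83) in PANC-1, 4.98 times as much. Its relative ETS1 averaged 16.7 TPM (SD 2.42) and 37.8 TPM (SD 1.38). PHLDA1, which encodes a pleckstrin homology domain protein, averaged 107 TPM (SD 17.6) and 242 TPM (SD 6.05). IER3 was the most abundant of the 10 in both lines, with 409 TPM (SD 62.05) in AsPC-1 and 343 TPM (SD 25.9) in PANC-1. ETV1 was the least abundant in both. In the order of levels, these neighbours had libraries that overlapped: PHLDA1 with IER2, ETS2 with EGR1 and ETV5 with ETV1 in AsPC-1, and IER2 with MYC and ETS1 with EGR1 in PANC-1.

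EGR1 and IER3 were the 2 genes whose libraries overlapped between the lines. Their log2 differences were -0.24 each (SE 0.0651 and 0.0745), with limma adjusted p of 0.0131 and 0.0199. In proportion to their small size these differences moved with the scaling. Under quantile normalization they were -0.72 for EGR1 and -0.55 for IER3, and with TPM rescaled without mitochondrial genes -0.62 and -0.63. The call for IER3 was lost without the AsPC-1 roseoflavin library (adjusted p 0.0555) and without the PANC-1 roseoflavin library (0.0522). The log2 difference of MYC was -0.37 (SE 0.05004) and went to -0.82 and -0.76 under these scalings in the same order, and that of IER2 was -0.61 (SE 0.0454) and went to -1.05 and -0.997. That of ETS1 was 1.14 (SE 0.0804) and went to 0.64 under quantile normalization, and ETV1 went from -1.05 (SE 0.0510) to -1.60. The plot of levels in 8 libraries shows that the gaps between the lines are wider than the gaps between treatments for most genes.

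**Figure D1:**
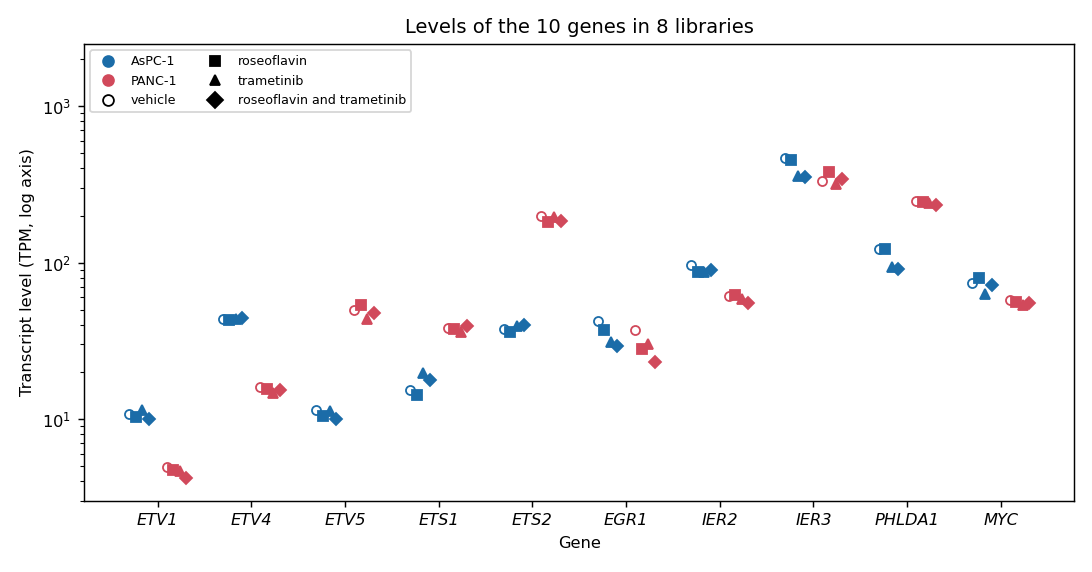
Levels of the 10 genes in TPM on a log axis, 1 point per library, with the line given by colour and the treatment by symbol. ETV4 and ETV1 lie higher in AsPC-1 and ETV5, ETS1, ETS2 and PHLDA1 in PANC-1, while the points of EGR1 and IER3 overlap between the lines.

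The next question was what trametinib did to the 10 genes at 1 nM. The early genes EGR1, IER3, PHLDA1 and MYC and the ETS factor ETV5 were lower in all 4 matched comparisons, that is, against the library of the same line with the same roseoflavin state. ETS1 and ETS2 were higher on average over the 4 comparisons. No gene passed the adjusted threshold in limma, among the 10 or among all genes (0%), and 938 genes had an unadjusted p under 0.05, so none of these differences is a call. With an unadjusted p under 0.05, 3 of the 10 were lower (EGR1, IER3 and PHLDA1), against 1.78% of all genes tested. Lower in 4 of 4 comparisons were 5 of the 10, against 4.54% of all genes. That share, like those of the same kind below, also covers genes at 0 TPM in a line, which cannot be lower there. With trametinib alone in AsPC-1, 8975 of 19122 genes were lower and 9098 higher, and the rest were level. The 10 genes were at or above 4.18 TPM in each library. The median difference of the 10 was -0.09 on the log2 scale, and that of all genes 0.02. The 10 genes were chosen as known targets of the pathway and with earlier results of these libraries in view.

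EGR1 encodes a zinc finger factor made within minutes of growth factor stimulation. It lies at chromosome 5, 138465490 to 138469315, plus strand. In AsPC-1 it was at 42.2 TPM with vehicle, 36.9 with roseoflavin, 31.0 with trametinib and 29.3 with both. In PANC-1 the values were 37.2, 27.9, 30.3 and 23.0 TPM in the same order. In AsPC-1 both libraries with trametinib were below both without, and in PANC-1 they overlapped, since roseoflavin alone was below trametinib alone. Trametinib alone was 26.6% below vehicle and both compounds 20.5% below roseoflavin in AsPC-1, and these gaps were 18.6% and 17.5% for PANC-1. The fitted difference was -0.33 (SE 0.0651, 95% interval -0.48 to -0.17, limma adjusted p 0.861), lower in 4 of 4 comparisons. Split by line it was -0.38 (AsPC-1) and -0.28 (PANC-1), with an SE of 0.0947 each. The log2 differences of all 10 genes are in the plot of the trametinib comparisons.

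**Figure D2:**
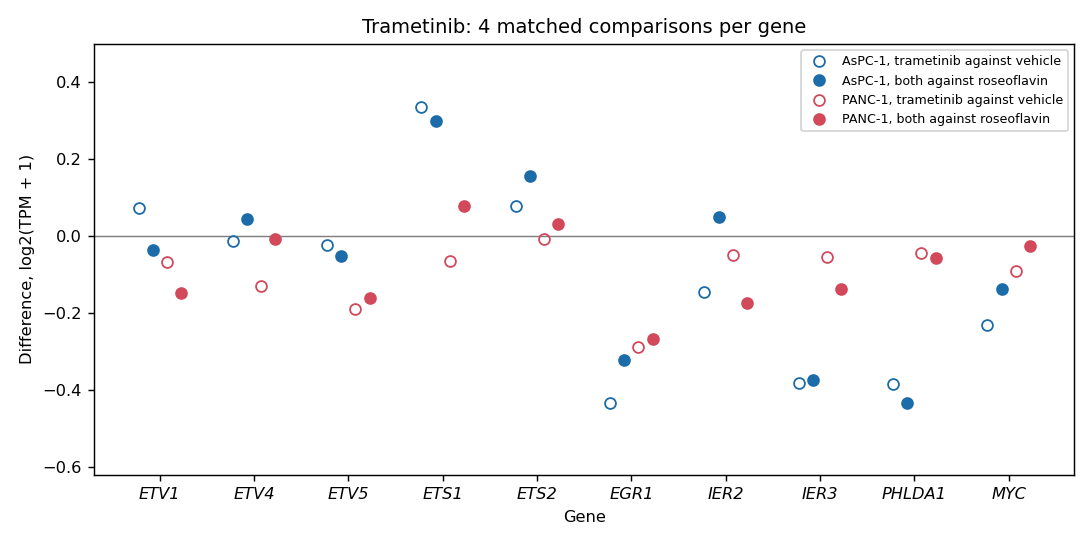
Difference in log2(TPM + 1) between each library with trametinib and its matched library without it, 4 points per gene, coloured by line, open against vehicle and filled against roseoflavin. All 4 points of EGR1, IER3, PHLDA1, MYC and ETV5 lie below 0. For EGR1, IER3, PHLDA1 and MYC the AsPC-1 points lie below the PANC-1 points, and for ETV5 they lie above.

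IER3, a stress-inducible regulator of apoptosis, and PHLDA1 differed mostly in AsPC-1. IER3 is at chromosome 6, 30743199 to 30744554, minus strand. In AsPC-1 it was at 470 TPM with vehicle and 455 with roseoflavin, and at 360 with trametinib and 351 with both. The PANC-1 values were 331, 379, 319 and 344 TPM for vehicle, roseoflavin, trametinib and both. The AsPC-1 libraries thus separated by trametinib and the PANC-1 libraries did not. The fitted trametinib difference was -0.38 for AsPC-1 and -0.10 for PANC-1 (SE 0.07525 each), and -0.24 over both (SE 0.0745, limma adjusted p 0.861).

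PHLDA1 is at chromosome 12, 76025447 to 76033932, minus strand. In AsPC-1 it was at 122 TPM with vehicle, 123 with roseoflavin, 93.5 with trametinib and 90.8 with both. PANC-1 held 248.5 (vehicle), 243 (roseoflavin), 241 (trametinib) and 234 TPM (both). The libraries with trametinib were the 2 lowest in both lines, below their matched libraries by 23.6% and 26.1% in AsPC-1 and by 2.93% and 3.87% in PANC-1. The fitted difference was -0.41 in AsPC-1 (SE 0.0419, limma adjusted p 0.189) and -0.05 in PANC-1 (SE 0.0419, adjusted p 1).

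Whether the lines differed in the trametinib response was tested as an interaction, the PANC-1 difference minus the AsPC-1 difference. It was 0.36 for PHLDA1 (SE 0.0593, limma adjusted p 0.4665), 0.28 for IER3 (SE 0.106, adjusted p 0.671) and -0.31 for ETS1 (SE 0.109, adjusted p 0.671). These 3 of 10 genes had an unadjusted p under 0.05, against 7.28% of all genes, and none passed the adjusted threshold, as for all genes (0%). Within AsPC-1 5 of 10 genes had an unadjusted p under 0.05 (EGR1, IER3, PHLDA1 and MYC lower, ETS1 higher), against 11.1% of all genes. Within PANC-1 EGR1 was the only 1 of the 10, against 3.83%. After adjustment 0 of 10 passed in either line, beside 0% and 0.0105% of all genes. In AsPC-1 both libraries with trametinib lay below both without it for 4 of 10 genes (EGR1, IER3, PHLDA1 and MYC), against 13.3% of genes tested. In PANC-1 they did so for 6 of 10 (ETV1, ETV4, ETV5, IER2, PHLDA1 and MYC), against 11.6%. Comparison by comparison, lower values were found for 7 of 10 in AsPC-1 with trametinib alone (46.9% of all genes) and 6 of 10 there beside roseoflavin (34.9%). In PANC-1 they were found for 10 of 10 (45.2%) and 8 of 10 (43.6%). In AsPC-1 the epithelial markers summed to 9306 and 9167 TPM without trametinib and to 9863 and 10555 TPM with it. A fitted difference above 0 was found for 6 of 6, where 10721 of 19122 genes had one, with 0 past the threshold. Against vehicle alone 5 of 6 were higher, and KRT18 was lower (2192.6 against 2321.5 TPM). The mesenchymal markers summed to 825 and 774 TPM without trametinib and to 740 and 668 TPM with it. These sums were nearly all VIM, at 816 and 765 TPM without it and at 732 and 660 TPM with it. The part of either marker set in the result was not tested.

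MYC, a basic helix-loop-helix factor that drives growth and ribosome production, lies at chromosome 8, 127735434 to 127741434, plus strand. In AsPC-1 it was at 74.3 TPM with vehicle, 79.5 with roseoflavin, 63.2 with trametinib and 72.2 with both. The PANC-1 libraries gave 57.3, 56.0, 53.7 and 55.0 TPM by the same sequence of treatments. The libraries with trametinib were the lower ones in both lines, but the AsPC-1 library with both compounds was 2.80% below vehicle, against 14.9% for trametinib alone. The fitted trametinib difference was -0.12 (SE 0.05004, limma adjusted p 0.861), lower in 4 of 4 comparisons, and -0.08 without the AsPC-1 trametinib library. The plot of 4 genes by treatment shows these values beside those of EGR1, IER3 and PHLDA1.

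**Figure D3:**
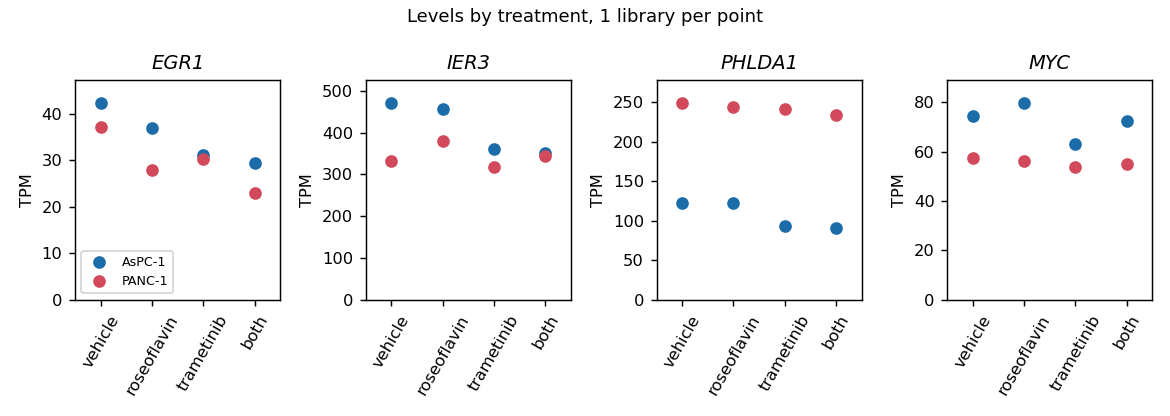
TPM of EGR1, IER3, PHLDA1 and MYC by treatment, 1 library per point, with AsPC-1 in blue and PANC-1 in red and each axis starting at 0. IER3 and PHLDA1 are lower with trametinib in AsPC-1, and the lowest EGR1 value in each line is that of both compounds.

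IER2, an immediate early gene for a nuclear protein, lies at chromosome 19, 13150415 to 13154908, plus strand. It was at 97.1 TPM with vehicle in AsPC-1, and at 87.1, 87.7 and 90.3 TPM with roseoflavin, trametinib and both. For PANC-1 the series from vehicle to both read 60.9, 61.9, 58.8 and 54.8 TPM. The AsPC-1 libraries with and without trametinib overlapped, and the PANC-1 libraries did not. The fitted difference was -0.08 (SE 0.0454, 95% interval -0.19 to 0.03, limma adjusted p 0.861).

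The PEA3 factors showed small differences. ETV5 (chromosome 3, 186046308 to 186110318, minus strand) was at 49.5, 53.2, 43.3 and 47.6 TPM in PANC-1 with vehicle, roseoflavin, trametinib and both. In AsPC-1 it was at 11.5, 10.4, 11.3 and 10.0 TPM. Trametinib gave values 12.5% and 10.7% lower in PANC-1 and 1.76% and 3.76% lower in AsPC-1, and the fitted difference was -0.11 (SE 0.0676, 95% interval -0.27 to 0.06). ETV4 (chromosome 17, 43527844 to 43579620, minus strand) stayed between 43.2 and 44.6 TPM over the 4 AsPC-1 libraries and between 14.6 and 16.0 TPM in PANC-1. Its fitted difference of -0.03 had a 95% interval from -0.12 to 0.07. ETV1 (chromosome 7, 13891228 to 13991425, minus strand) was at 10.7, 10.3, 11.4 and 10.0 TPM in AsPC-1 and at 4.91, 4.74, 4.64 and 4.18 TPM in PANC-1, in the order vehicle, roseoflavin, trametinib, both. Its difference of -0.04 had an interval from -0.17 to 0.08.

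ETS1 (chromosome 11, 128458761 to 128587558, minus strand) was higher with trametinib in AsPC-1, as was ETS2. ETV1 and ETV4 had fitted AsPC-1 differences of 0.019 (SE 0.0654) and 0.016 (SE 0.0535). For both, the sign differed between the comparisons against vehicle and against roseoflavin. ETS1 was at 15.3 TPM with vehicle and 14.2 with roseoflavin in AsPC-1. It was at 19.6 with trametinib and 17.7 with both, so both libraries with trametinib were above both without. PANC-1 had 37.9, 37.4, 36.2 and 39.6 TPM from vehicle to both, and the groups overlapped. The fitted difference was 0.32 in AsPC-1 (SE 0.0768, limma adjusted p 0.355) and 0.01 in PANC-1 (SE 0.0768), where its sign turned under quantile normalization (-0.0087) and without mitochondrial genes (-0.0097). ETS2 (chromosome 21, 38805307 to 38824955, plus strand) was at 37.4, 35.8, 39.5 and 40.0 TPM in AsPC-1, again with both trametinib libraries on top. The PANC-1 levels were 197, 181, 196 and 186 TPM, which overlapped. Its fitted difference was 0.07 (SE 0.0406, 95% interval -0.03 to 0.16). Over both lines that of ETS1 was 0.16 (SE 0.0804).

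Roseoflavin at 10 µM was compared in the same way. EGR1 and ETV1 were lower in 4 of 4 matched comparisons, 2 of the 10, against 10.2% of genes tested, and the other 8 differed in direction between comparisons. EGR1 had the largest fitted difference of the 10, -0.26 (SE 0.0651, limma adjusted p 0.615). It was the only member with an unadjusted p under 0.05 and a lower value, against 5.07% of all genes. For a list of 10 genes that count is near the share of all genes. None of the 10 passed after adjustment, nor did any gene tested (0%, with 1358 at an unadjusted p under 0.05). Against vehicle EGR1 was 25.1% lower in PANC-1 and 12.7% lower in AsPC-1, and against trametinib 24.1% and 5.50% lower in that order of lines. The fitted difference was -0.39 in PANC-1 and -0.14 in AsPC-1 (SE 0.0580 each, limma adjusted p 0.189 and 0.549). In PANC-1 both roseoflavin libraries were below both others for EGR1 and ETS2, 2 of 10 against 22.7% of all genes, and in AsPC-1 for ETV1 and ETV5, 2 of 10 against 21.6%.

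The interaction of line and roseoflavin was -0.26 for EGR1 (SE 0.08205, limma adjusted p 0.440) and 0.26 for ETV5 (SE 0.0875, adjusted p 0.452). These 2 of 10 genes had an unadjusted p under 0.05, beside 9.97% of all genes, and 0 of 10 passed after adjustment, beside 0.0261%. Within the lines 1 of 10 genes (EGR1) had an unadjusted p under 0.05 in PANC-1 and 0 of 10 in AsPC-1, where 9.47% and 9.58% of all genes did. In neither line did a member or any other gene pass after adjustment (0%). For ETV1 the roseoflavin difference was -0.10 (SE 0.0510, limma adjusted p 0.736). MYC was 6.97% higher with roseoflavin against vehicle and 14.2% higher against trametinib in AsPC-1. In PANC-1 it was 2.25% lower and 2.35% higher. The plot of the roseoflavin comparisons shows the spread of the 4 values of each gene around 0.

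**Figure D4:**
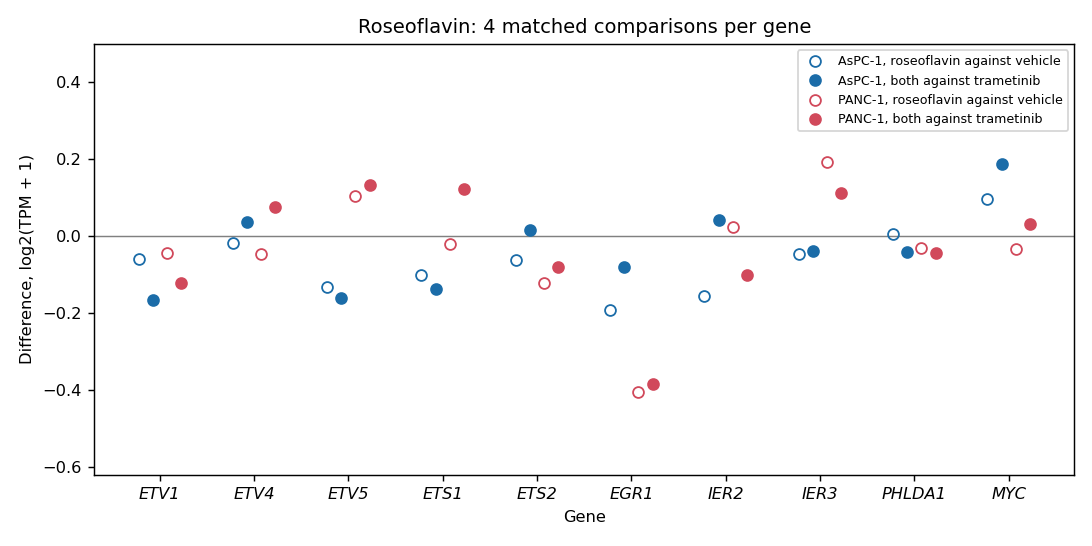
Difference in log2(TPM + 1) between each library with roseoflavin and its matched library without it, 4 points per gene, coloured by line, open against vehicle and filled against trametinib. EGR1 and ETV1 have 4 points below 0, and the PANC-1 points of EGR1 are the lowest of the plot.

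The combination was then set against vehicle. EGR1 was 30.6% lower in AsPC-1 and 38.2% lower in PANC-1, the largest difference among the 10 genes in each line. The fitted difference was -0.59 (SE 0.0994, 95% interval -0.84 to -0.34, limma adjusted p 0.821). EGR1 was the only 1 of the 10 with an unadjusted p under 0.05, against 5.32% of all genes, and 0 passed after adjustment, as for all genes (0%). Lower in both lines were ETV1, ETV5, EGR1, IER2, PHLDA1 and MYC, 6 of 10 against 22.7% of all genes. In AsPC-1 IER3 and PHLDA1 were 25.2% and 25.8% below vehicle. In PANC-1 IER3 was 4.02% above vehicle and PHLDA1 5.87% below.

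An interaction term asked if both compounds gave more or less than their log2 differences added up. For EGR1 it was 0.07 (SE 0.141, 95% interval -0.29 to 0.42, limma adjusted p 0.9999). None of the 10 genes had an unadjusted p under 0.05, beside 2.8% of all genes, and no gene passed after adjustment (0%). The width of the EGR1 interval means that a departure as large as the trametinib difference itself would lie within it on the upper side.

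Other genes of the pathway were taken from lists. Of the 7 further genes of a published MAPK activity score 6 were measured above the filter, and all 6 had a fitted trametinib difference below 0 (median -0.09), where 7848 of 19122 genes did. Of these 3 were lower in 4 of 4 matched comparisons, and 0 passed the adjusted threshold. Split by line, 5 of 6 were below 0 in AsPC-1 and 5 of 6 in PANC-1, where DUSP4 was at or below 0.143 TPM. DUSP6, the phosphatase that switches ERK off, had the smallest p, with a difference of -0.38 (SE 0.0360, limma adjusted p 0.564). It was at 193, 176, 155 and 136 TPM in AsPC-1 and at 18.6, 17.5, 14.0 and 12.5 TPM in PANC-1 with vehicle, roseoflavin, trametinib and both. Like EGR1, ETV1, PHLDA1 and SPRY2, DUSP6 had its lowest value with both compounds in each line. How many of all genes did so was not counted. SPRY4, an inhibitor of receptor signalling, had a difference of -0.28 (SE 0.0587, limma adjusted p 0.861). In AsPC-1 its lowest value was with trametinib alone (17.9 TPM, against 20.4 TPM with both).

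Among 25 of 26 other immediate early genes that were measured, 11 were lower and 14 higher with trametinib (median 0.01), and 0 passed. FOS, a partner in the AP-1 factor, had a difference of -0.34 (SE 0.0746, limma adjusted p 0.861). In AsPC-1 FOS was at 54.8, 34.0, 45.3 and 29.9 TPM with vehicle, roseoflavin, trametinib and both, and in PANC-1 at 11.3, 8.385, 7.97 and 5.86 TPM. The lowest FOS value of each line was again that of both compounds. DUSP2, at or below 3.07 TPM in each library, had a difference of 0.25 (SE 0.0802, limma adjusted p 0.861), which was 0.51 with a pseudocount of 0.1. For 17 of 23 other ETS family factors above the filter the median was 0.06, with 14 higher, where 11274 of 19122 genes were, and 0 past the threshold. None of the 17 was higher in 4 of 4 matched comparisons, though ERG and FLI1, at 0 TPM in AsPC-1, could not be. The smallest p values in that list were those of ELF4 (0.06, SE 0.0426) and ELK4 (0.07, SE 0.0456), the latter a factor that binds beside SRF. CIC, its partners ATXN1 and ATXN1L, and the repressor ERF had fitted trametinib differences above 0, 4 of 4 where 11274 of 19122 genes did, with a median of 0.06 and 0 past the threshold. Only 1 of the 4 was higher in every matched comparison. ERF also counts among the other ETS factors. ATXN1L was at 0.09 (SE 0.0395) and CIC at 0.05 (SE 0.0490).

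The list of 20 MYC target genes, mostly of ribosome, nucleotide and polyamine synthesis with LDHA of glycolysis, had differences of the same sign as MYC under both compounds. With trametinib 16 of 20 were lower (median -0.05), and with roseoflavin 17 of 20 were higher (median 0.04), with 0 past the threshold in either. In AsPC-1 18 of 20 were higher with roseoflavin, where 7435 of all 19122 genes were, and in PANC-1 7 of 20, where 9441 were. Over all genes 7848 of 19122 were lower with trametinib and 8064 higher with roseoflavin. NOP56 and RRP9, which act in ribosomal RNA processing, had trametinib differences of -0.13 (SE 0.0587) and -0.14 (SE 0.0676). Of 9 measured MYC partners and antagonists 5 were lower with trametinib (median -0.01), led by MNT (-0.09, SE 0.0436) and MLX (-0.09, SE 0.0563). The EGR1 partners NAB1 and NAB2, which restrain its activity, were at -0.04 (SE 0.0489) and -0.07 (SE 0.0713). None of these lists held a gene past the adjusted threshold for trametinib. The plot of the lists places them beside the 10 genes.

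**Figure D5:**
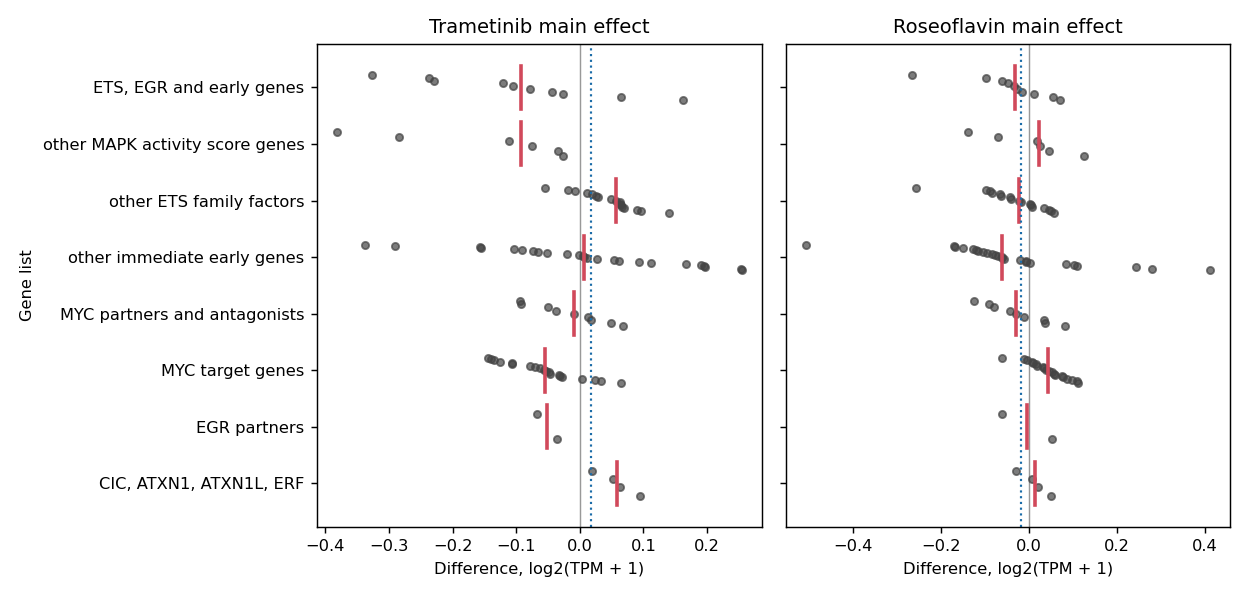
Fitted differences in log2(TPM + 1) for trametinib (left) and roseoflavin (right), 1 grey point per gene, with the median of each list as a red bar and the median of all 19122 genes as a dotted blue line. The ETS, EGR and early genes and the other MAPK activity score genes have trametinib medians of -0.09. Medians of the MYC target genes have opposite signs under the compounds when the lines are fitted together.

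The genes whose pattern was most like that of EGR1 were sought among 8629 named genes averaging 10 TPM or more. Likeness was Pearson's r over the 8 libraries after each line was centred on its own mean, given as a description because the libraries share their lines and treatments. The 5 highest were TMCO6 (0.987), ORC6 (0.967), ENC1 (0.967), PLEK2 (0.962) and PIAS3 (0.962).

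Some of the genes overlap others in GENCODE release 29, from which the coordinates are taken. ETV4 overlaps DHX8 on the opposite strand, which reached 13.7 TPM, close to the level of ETV4 in PANC-1. ETV5 overlaps DGKG on the same strand, which reached 2.61 TPM. PHLDA1 and IER3 overlap antisense genes that reached 2.95 and 1.01 TPM. The library kit keeps the strand, but whether the counting used it is not given in the sources used here, so reads in the shared parts are uncertain.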

How the data were processed

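RNA from 8 libraries of AsPC-1 and PANC-1 spheroids was sequenced from stranded mRNA libraries. The authors deposited 1 table, whose 8 value columns are TPM per the file headers. STAR 2.7.3a, HTSeq 2.0.2 and hg38 are named in the submitters' processing notes, with no role given, and the annotation and filters are not given in the sources used here. After 985926 blank rows were dropped, 62649 genes remained.

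The depth of each library cannot be read from TPM, so no counting interval is given. Genes with at least 1 TPM in 2 libraries were kept (19122). limma 3.58.1 in R 4.3.3 was fitted to log2(TPM + 1) with a variance trend, a scale that understates changes of low genes, with Benjamini-Hochberg adjustment over all 19122. Main effects were additive with line and the second compound, each interaction was added alone, and the combination was fitted with treatment as 4 levels and line as a block. The table held TPM, so the option for counts in the design was not used. Scripts were tested on simulated data.

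The alternatives were a pseudocount of 0.1, no filter (33423 genes), a mean of at least 10 TPM (9368 genes), quantile normalization, TPM rescaled without mitochondrially encoded genes, and leaving out each library. The members, lists and tests were chosen with earlier results of these data known. Genes named by rule are the 10 members, the 2 of each other list with the smallest trametinib p and the 5 most like EGR1. All 117 listed genes were found by symbol. Promoter sequences are from RefSeq (GRCh38.p14), and coordinates from GENCODE release 29 (GRCh38). No promoter window was found for ETV4, ETV5, ETS1 or IER3. MYC was left out of the promoter search, so the motif results say nothing about it.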

Additional observations from a re-analysis of the deposited data

Results flagged for a closer look

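ETV5 and IER3 are listed because both AsPC-1 comparisons with roseoflavin went down and both PANC-1 comparisons went up. Of all genes 35.4% were lower in both AsPC-1 comparisons, and how many had the whole pattern was not counted. The differences between the lines given below are made of the same values as this choice, so they add no support to it. ETV5 was 9.56% lower against vehicle and 11.4% lower against trametinib in AsPC-1, and 7.63% and 9.83% higher in PANC-1. The PANC-1 minus AsPC-1 difference was 0.26 on the log2 scale (SE 0.0875, limma adjusted p 0.452). IER3 was 3.09% and 2.55% lower in AsPC-1 and 14.4% and 8.05% higher in PANC-1, a difference of 0.19 (SE 0.136, limma adjusted p 0.685). Leaving out 1 library moved that of IER3 to between 0.07 (without PANC-1 vehicle) and 0.31 (without PANC-1 trametinib). Neither passed the adjusted threshold. The cause was not tested.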

How the results depend on the processing

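Counts of genes past the adjusted threshold were small and moved with the settings. In the values as reported 5 genes passed for the line by roseoflavin interaction and 2 for trametinib in PANC-1, and 0 for the other compound comparisons. With a pseudocount of 0.1 these were 8 and 8, with 4 for line by trametinib, 1 for roseoflavin in AsPC-1 and 2 for roseoflavin in PANC-1. Without the filter (33423 genes) they were 0 and 33, with 2 for line by trametinib, 11 for trametinib in AsPC-1, 10 for roseoflavin in AsPC-1 and 2 for roseoflavin in PANC-1. Keeping the 9368 genes that averaged 10 TPM or more, which leaves out ETV1, 0 passed for trametinib in PANC-1, 22 for roseoflavin in PANC-1 and 8388 between the lines, against 16027, where fewer genes were tested. Quantile normalization gave 0 for line by roseoflavin and 1 for trametinib in PANC-1. Rescaling without mitochondrial genes gave 0 for line by roseoflavin and 2 for line by trametinib. Leaving out a library gave 0 to 0 for both line by roseoflavin and trametinib in PANC-1. The causes were not tested.

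Over 55 results for single genes, leaving out a library gave 440 values, of which 431 kept direction and call, 7 reversed and 2 (IER3 between the lines) lost the call. Of 271 values under the other alternatives 269 kept both and 2 reversed. The reversals were all of differences near 0. ETV4 with trametinib ranged from -0.044 to 0.00066, NAB2 with trametinib from -0.11 to 0.0031, the compound interaction of EGR1 from -0.067 to 0.20, and ETS1 with trametinib in PANC-1 from -0.10 to 0.11. ETS1 in PANC-1 also went to -0.0087 under quantile normalization and to -0.0097 without mitochondrial genes. When a library was left out, the trametinib difference of EGR1 ranged from -0.37 to -0.27. Others moved by over 1.5 times, and those named here are not all of them. The trametinib differences of ELF4, ELK4, NAB1, MLX, NOP56, RRP9 and CIC are among them. ETV1 with trametinib went from -0.04 to -0.01, and MYC with trametinib in AsPC-1 from -0.18 to -0.10. Over both lines MYC went from -0.12 to -0.08 and ETS1 from 0.16 to 0.10 without AsPC-1 trametinib. ETV5 went from -0.11 to -0.05 without PANC-1 trametinib. ETS2 went from 0.07 to 0.03 without the AsPC-1 library of both compounds. IER3 in PANC-1 went from -0.10 to -0.0039 without PANC-1 roseoflavin, EGR1 in PANC-1 from -0.28 to -0.18 without PANC-1 vehicle, and EGR1 with roseoflavin in AsPC-1 from -0.14 to -0.06 without AsPC-1 vehicle. Genes of the 10 that were lower in 4 of 4 trametinib comparisons numbered 5 as reported, 6 under quantile normalization and 5 without mitochondrial genes. The labels carry no replicate numbers, so libraries were matched only by line and by the other compound. The line was a term in each compound fit. With 1 library per group, culture-to-culture variation is not measured.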
